A study of Chlamydomonas reinhardtii with 9 samples.

Results

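Among single cells of the green alga Chlamydomonas starved of iron, the transcripts of photosynthesis genes took very unequal shares of the mRNA, and the cells described here are those at the upper and lower ends of that range. Each cell was scored by the share of its unique molecular identifiers (UMIs, 1 per captured mRNA molecule) that fell in 83 nucleus-encoded photosynthesis genes listed by the study. Cells of at least 1000 UMIs in the 2 Fe- libraries of strain CC-5390 were placed in 20 depth bins of equal number per library, and the highest and the lowest 1 in 4 cells of each bin by this score were taken as the high and the low group, so that both groups had the same depth. This gave 2371 high and 2371 low cells in experiment 1 and 2020 high and 2020 low cells in experiment 2, which is 8782 of 17621 Fe- cells of that depth and of 73141 cells in the 9 libraries of the series. A further 1505 and 1181 Fe- cells had fewer UMIs and were left out.

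CC-5390 is a cell wall-deficient strain (cw15 arg7-8::ARG7, mating type plus) and was grown with acetate in constant light. In both experiments the Fe- cells were taken 23 h after transfer to medium with no iron, and the Fe+ cells 23 h after transfer to medium with 20 µM FeEDTA. The other libraries used below or left aside were Fe- and Fe+ cells of the walled strain CC-4532 (CW MT-) from experiment 2, nitrogen-starved CC-5390 cells, and a CC-5390 library labelled Mix. Each library was made on the 10x Chromium 3′ platform, and the replicate was the library, with 2 for each CC-5390 iron condition, 1 per experiment. The Fe- libraries of CC-5390 held 37133976 UMIs in experiment 1 and 52436795 in experiment 2. The 2 Fe- libraries shared 36 cell barcodes, and other pairs of libraries shared 0 to 40.

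Photosynthesis begins with light-harvesting antenna proteins, which carry chlorophyll and pass energy to photosystem II and photosystem I. Electrons move between the photosystems through the cytochrome b6f complex, and the proton gradient drives the chloroplast ATP synthase. Photosystem I and cytochrome b6f hold much of the iron of the chloroplast, and algae given acetate can grow while dismantling this machinery when iron runs short. The nuclear genes of the list cover antenna proteins, subunits of these 4 complexes, enzymes of chlorophyll synthesis, and M and T factors, which are nuclear proteins that stabilise or translate single chloroplast mRNAs.

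The score itself chose the cells, so its values are given as a description. In experiment 1 the list took 15.2% of UMIs in the high group and 7.26% in the low group, at a median of 2952 and 2951 UMIs per cell. In experiment 2 it took 7.70% in the high group and 2.67% in the low group, at a median of 6517 and 6514 UMIs per cell. The experiments thus differed too, and the high group of experiment 2 lay at the level of the low group of experiment 1. In the middle depth bin of experiment 1 the last cell inside the high group had 13.20% and the next outside 13.19%, and the last inside the low group had 8.397% and the next 8.49%. In experiment 2 those cells had 6.10% and 6.09% at the upper border and 3.36% and 3.36% at the lower one. The score varied continuously, with no gap at either border.

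The spread between cells was wider than counting error. The SD over Fe- cells was 3.103 percentage points in experiment 1, against 0.596 for counting alone, and 2.13 against 0.310 in experiment 2. Fe- cells had a median share of 11.01% against 21.03% in Fe+ cells of experiment 1, and 4.33% against 9.73% in experiment 2. Of all Fe- cells, 226 of 9511 (2.38%, exact 95% interval 2.08 to 2.70%) lay above the 5th percentile of Fe+ cells in experiment 1. In experiment 2, 2442 of 8110 (30.1%, 29.1 to 31.1%) did. In the high group, chosen for a high share, these were 226 of 2371 (9.53%) and 1542 of 2020 (76.3%). No cell of the low group lay above that percentile in either experiment. The counts for the groups depend both on how the groups were chosen and on the lower shares of Fe- cells. The low group still met the tail of the Fe+ range, since its shares reached 10.4% and 4.34%, and the lowest Fe+ cells had 6.36% and 1.72%. Intervals on cells and UMIs cover counting error only.

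**Figure D1:**
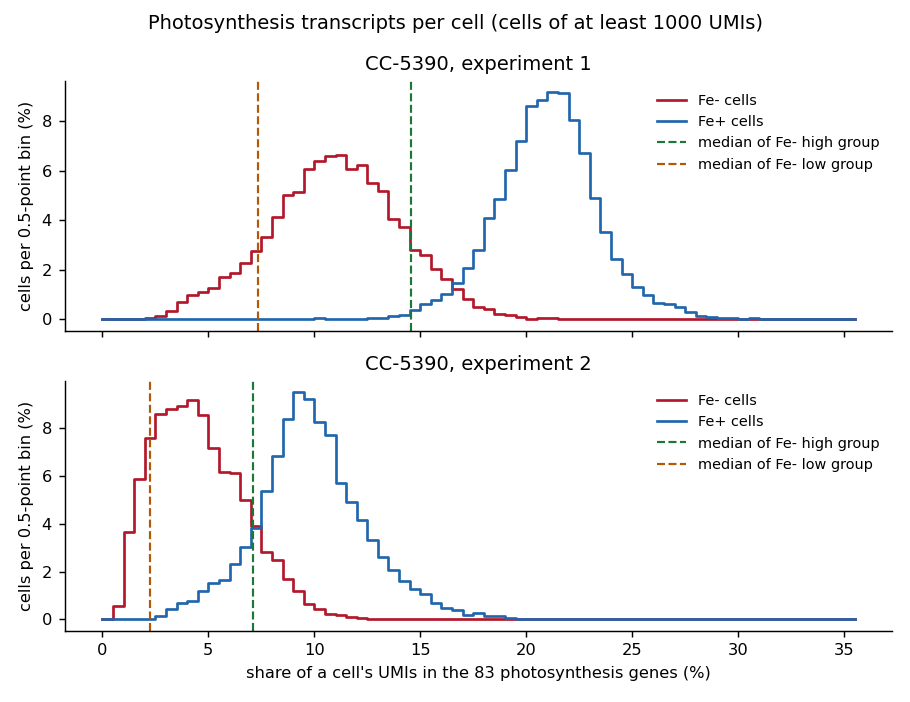
Share of each cell's UMIs in the 83 photosynthesis genes (x axis, percent) against the percent of cells in each bin of 0.5 points (y axis), for Fe- and Fe+ CC-5390 cells of at least 1000 UMIs in experiment 1 (top) and experiment 2 (bottom). Dashed lines mark the median of the high and the low group of Fe- cells, 14.5% and 7.35% in experiment 1 and 7.10% and 2.26% in experiment 2.

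A few antenna genes carried most of the score. Antenna genes held 75.9% and 77.7% of the list's UMIs in the Fe- libraries, and LHCBM1 and LHCBM3, which encode major trimeric antenna proteins of photosystem II, held 51.3% and 59.1% together. To see whether the rest of the list followed, each gene was compared over groups set by the other 82 genes, and its level was taken per 1000000 UMIs outside the list (CPM). Of the 83 genes, 59 were higher in the high group of both libraries and 7 were lower in both. On this scale the median gene tested outside the list had a log2 ratio of -0.11 in experiment 1 and -0.47 in experiment 2, so a list gene at 0 in experiment 2 stood above most genes.

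All 9 photosystem I antenna genes were higher, and 4 of them headed the list. LHCA1 had 2739 CPM in the high group and 634 CPM in the low group of experiment 1, and 1155 and 108 CPM in experiment 2, which is 4.32-fold (95% interval 4.19 to 4.45) and 10.7-fold (10.1 to 11.3). LHCA6 differed 4.78-fold and 7.85-fold, LHCA5 4.64-fold and 8.59-fold, and LHCA4 4.597-fold and 7.87-fold. The lowest ratios among these genes were 2.60-fold for LHCA9 in experiment 1 and 5.19-fold for LHCA7 in experiment 2. The other 3 were LHCA2 at 2.81-fold and 5.37-fold, LHCA3 at 3.34-fold and 8.42-fold, and LHCA8 at 3.72-fold and 6.96-fold. The photosystem I antenna genes thus had larger ratios than LHCBM1 and LHCBM3, which dominate the score. The groups for LHCBM1 were set without 27.4% and 33.9% of the list's UMIs, and those for LHCBM3 without 24.0% and 25.2%. The groups compared thus differed between genes, and the part of this in the ratios was not tested.

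The photosystem II antenna was less uniform. LHCBM7, the fifth highest gene of the list, had 11079.5 CPM in the high and 2764 CPM in the low group of experiment 1, and 5231 and 772 CPM in experiment 2. LHCBM1 had 44562 and 23367 CPM in experiment 1 and 26207 and 9888 CPM in experiment 2. LHCBM3 had 35514 and 23849 CPM in experiment 1 and 17504 and 8621 CPM in experiment 2. The minor antenna genes, LHCB4 (CP29) and LHCB5 (CP26), were 3.30-fold and 3.16-fold higher in experiment 1 and 2.92-fold and 5.81-fold higher in experiment 2. LHCBM2 was 2.11-fold and 1.46-fold higher, LHCBM5 3.46-fold and 2.55-fold, and LHCBM6 2.31-fold and 3.16-fold. All of these were higher in the high group of both libraries.

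LHCBM4, LHCBM8 and LHCBM9 broke the pattern, each in 1 library. LHCBM4 had 399.5 CPM in the high group and 160.1 CPM in the low group of experiment 1, but 89.1 and 362 CPM in experiment 2, a ratio of 0.246 (0.230 to 0.263). LHCBM8 had 102 and 60.6 CPM in experiment 1 and 74.1 and 189 CPM in experiment 2, a ratio of 0.393 (0.363 to 0.424). LHCBM9, an antenna gene known for its induction under nutrient stress, had 3.67 and 15.3 CPM in experiment 1, a ratio of 0.240 (0.154 to 0.364) from 28 and 128 UMIs, and 6.68 and 3.60 CPM in experiment 2. The low group of experiment 2 thus held more LHCBM4 and LHCBM8 mRNA, and the low group of experiment 1 more LHCBM9 mRNA. The LHCBM genes are close copies of each other, and reads shared between copies could have been split or dropped in counting, so their separate values are uncertain.

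The subunits of the complexes moved as blocks. All 10 photosystem I, 6 photosystem II, 4 cytochrome b6f and 3 ATP synthase genes were higher in the high group of both libraries, each with an interval above 1. Their median log2 ratios in experiments 1 and 2 were 1.59 and 2.70 for photosystem II, 1.37 and 2.22 for photosystem I, 1.08 and 1.54 for cytochrome b6f, and 0.80 and 1.53 for ATP synthase. PSBQ, a lumenal subunit that stabilises the oxygen-evolving site of photosystem II, had 2411 CPM in the high and 791 CPM in the low group of experiment 1, and 945 and 115 CPM in experiment 2. PSAD, a stromal subunit of photosystem I at its ferredoxin docking site, had 2438 and 955 CPM in experiment 1, and 809 and 153 CPM in experiment 2. PETC, the Rieske iron-sulfur protein of cytochrome b6f, was 2.05-fold and 2.99-fold higher, and ATPG 1.75-fold and 2.88-fold higher.

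Chlorophyll synthesis followed in experiment 1 and in part in experiment 2. All 20 genes were higher in experiment 1, with a median log2 ratio of 1.11, and 16 were in experiment 2, with a median of 0.63. CHLG (chlorophyll synthase) was 2.96-fold and 6.09-fold higher in the high group, and CTH1, a subunit of the cyclase that closes the chlorophyll ring, 3.003-fold and 1.87-fold. CPX1 (coproporphyrinogen oxidase) had 90.1 CPM in the high and 48.6 CPM in the low group of experiment 1, and 23.7 and 49.7 CPM in experiment 2.

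The M and T factors did not follow. Of 20, 3 were higher in both libraries, 7 lower in both, and their median log2 ratios were -0.04 and -0.38, near those of all genes on this scale. The 5 lowest genes of the list by the smaller of the 2 log2 ratios were TBC2, LHCBM9, Mac1, LHCBM4 and Rat1. TBC2, which is required to translate the chloroplast psbC mRNA, had 5.90 CPM in the high and 5.86 CPM in the low group of experiment 1, and 4.48 and 19.4 CPM in experiment 2. Rat1, a factor for the trans-spliced psaA mRNA, had 13.5 and 22.5 CPM in experiment 1, and 12.002 and 43.7 CPM in experiment 2. Mac1, a factor for the psaC mRNA, had 3.28 and 5.38 CPM in experiment 1, and 3.04 and 12.6 CPM in experiment 2. These are rare mRNAs, with 25 to 546 UMIs per group for these 3 genes.

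**Figure D2:**
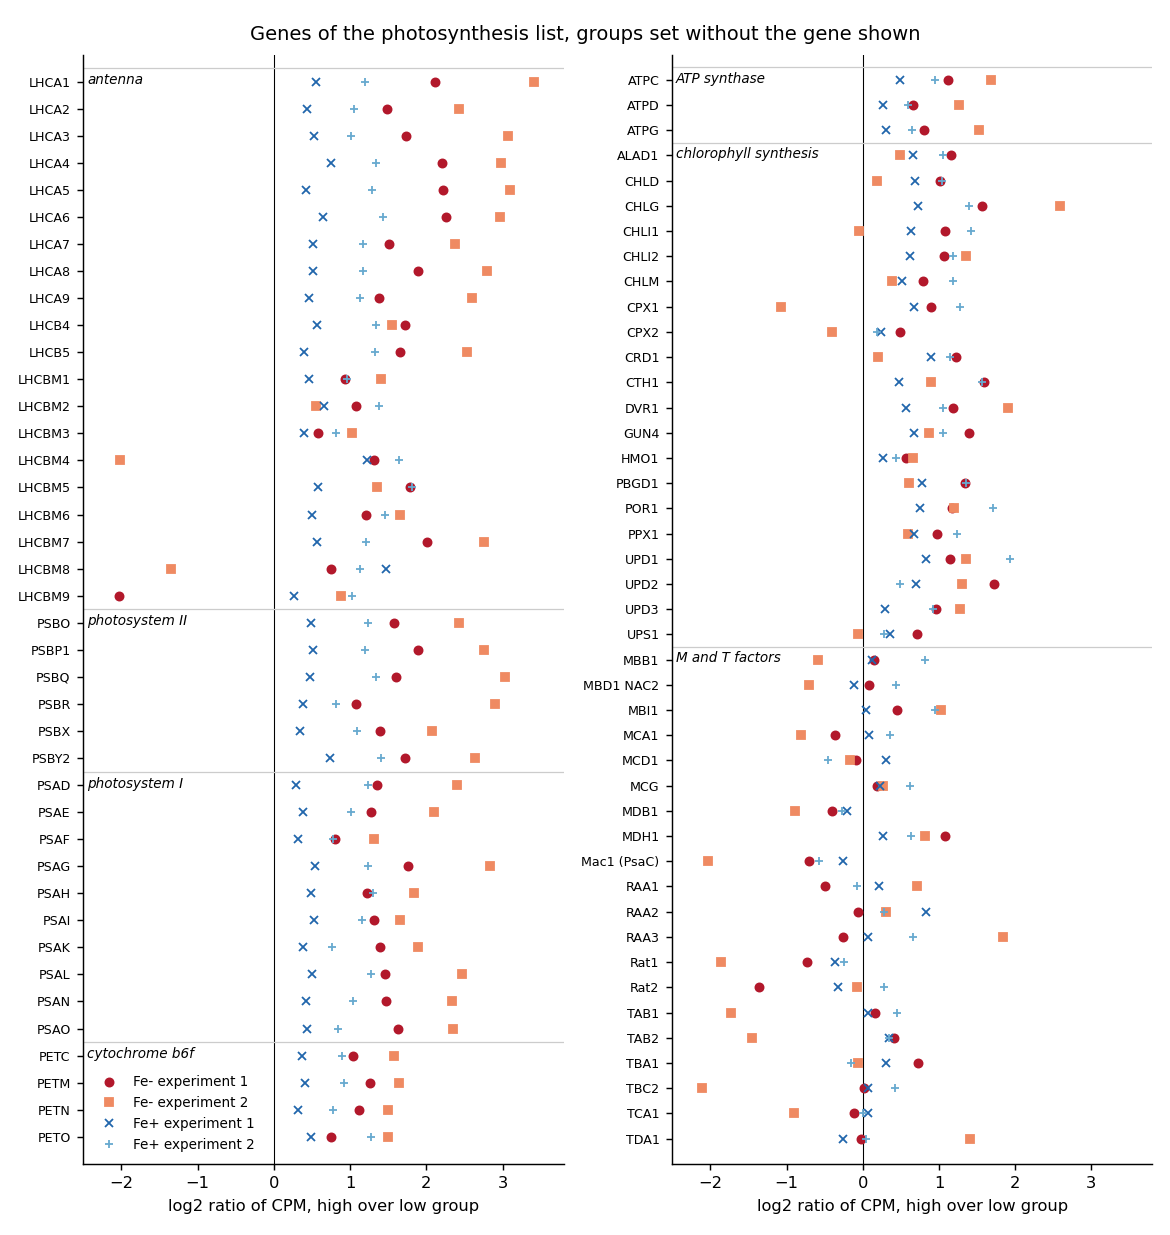
Log2 ratio of CPM in the high over the low group (x axis) for each of the 83 photosynthesis genes (rows, grouped by class), with the groups set by the other 82 genes. Filled symbols are the 2 Fe- libraries and crosses the 2 Fe+ libraries, so that LHCA1 lies at 2.11 and 3.42 in Fe- cells, and the M and T factors scatter around 0.

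The same split of Fe+ cells gave smaller median ratios for the antenna and the 4 complexes. Photosystem I genes had a median log2 ratio of 1.37 in Fe- and 0.42 in Fe+ cells of experiment 1, and 2.22 in Fe- and 1.10 in Fe+ cells of experiment 2. All subunit genes of the 4 complexes had a higher ratio in Fe- than in Fe+ cells in both experiments. Chlorophyll synthesis did so in experiment 1, with medians of 1.11 in Fe- and 0.67 in Fe+ cells, but not in experiment 2, with 0.63 and 1.16, where 6 of 20 genes had the higher ratio in Fe- cells. The M and T factors had lower medians in Fe- than in Fe+ cells, at -0.04 and 0.07 in experiment 1 and -0.38 and 0.32 in experiment 2. These ratios were not tested, since the width of the score differed between conditions.

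Genes outside the list entered the choice of cells only through the total UMIs of each cell. UMIs were summed over each group of each library, and the 4 sums were compared by edgeR's quasi-likelihood test with the library as a block, with TMM factors computed on the UMIs outside the list. A gene was called at a Benjamini-Hochberg adjusted p under 0.05 with at least a 1.5-fold difference in the same direction in each library. Of 12917 genes tested, 636 (4.92%) were called, and 209 (1.62%) were higher and 427 (3.31%) lower in the high group, and 2355 had an unadjusted p under 0.05. TMM raised the log2 ratios by 0.21 in experiment 1 and 0.53 in experiment 2 over plain shares of UMIs, and with no factors 109 were higher and 834 lower. Of these, 107 and 427 were also called with TMM. With no block for the library, no gene passed (866 had an unadjusted p under 0.05). With all cells thinned to 1000 UMIs, 82 genes were higher and 110 lower.

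**Figure D3:**
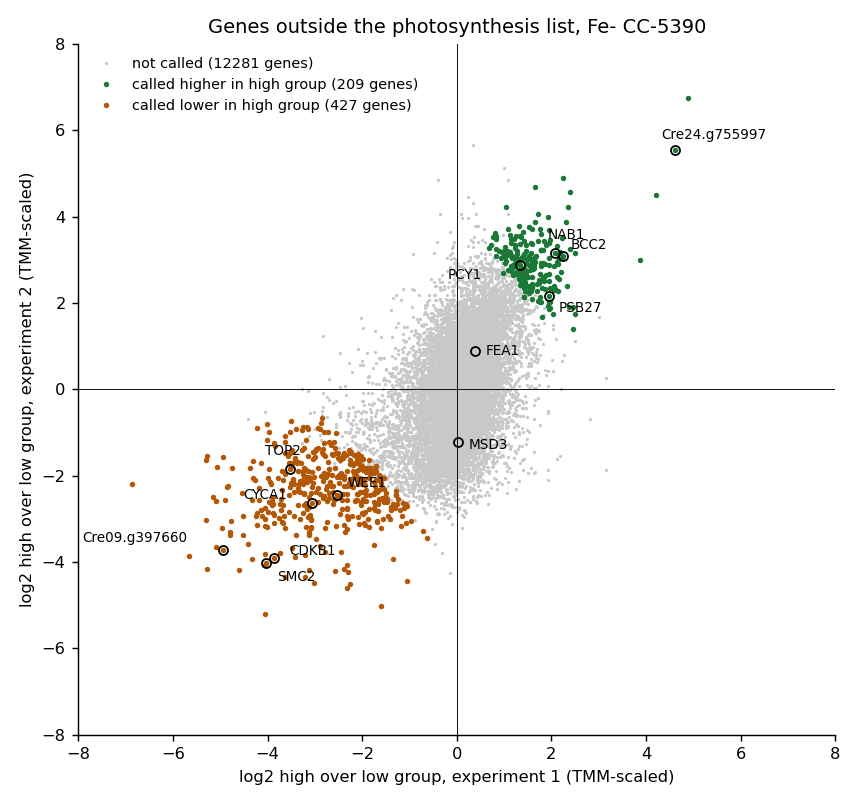
Log2 ratio of the high over the low group of Fe- CC-5390 cells in experiment 1 (x axis) and experiment 2 (y axis), TMM-scaled, for 12917 genes outside the photosynthesis list. The 209 genes called higher and 427 called lower are coloured, and circled genes are named in the text; FEA1 and MSD3, of the iron response, lie among the genes not called.

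The genes called higher with the largest ratios in both libraries included several with no symbol in the sources used here. Cre24.g755997, on an unplaced scaffold, had 256 TMM-scaled CPM in the high group and 10.4 in the low group of experiment 1, and 172 and 3.63 in experiment 2. Its high and low groups differed 24.6-fold and 46.8-fold (edgeR log2 fold change 5.07 ± 0.73 SE, adjusted p = 1.76e-08). Cre10.g452250 had 86.2 and 16.3 CPM in experiment 1, and 51.3 and 2.10 CPM in experiment 2. Cre09.g399400 had 119 and 23.2 CPM in experiment 1, and 82.7 and 4.39 CPM in experiment 2. Cre11.g476750 was the most abundant of them, with 441 and 88.6 CPM in experiment 1, and 347 and 23.7 CPM in experiment 2. These genes lie at 10:4542046-4545787, 9:1258513-1269209 and 11:2688429-2692590 of the v5.5 assembly.

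PCY1, PSB27, RBD2 and NAB1 were among the named genes called higher. PCY1 encodes plastocyanin, the copper protein that carries electrons from cytochrome b6f to photosystem I. It had 3306 CPM in the high and 1319 CPM in the low group of experiment 1, and 3140.2 and 423 CPM in experiment 2 (log2 fold change 2.11 ± 0.57 SE, edgeR adjusted p = 0.0109). PSB27, an assembly factor of photosystem II, had 82.6 and 21.3 CPM in experiment 1, and 46.1 and 10.2 CPM in experiment 2. RBD2, a rubredoxin, had 62.5 and 13.9 CPM in experiment 1, and 82.7 and 10.2 CPM in experiment 2. NAB1, which binds LHCBM mRNAs in the cytosol and represses their translation, had 137 and 32.4 CPM in experiment 1, and 129.6 and 14.5 CPM in experiment 2 (edgeR adjusted p = 0.0042). Transcripts of a repressor of antenna translation were thus higher in the same cells as the antenna transcripts.

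Other named genes were higher by similar amounts. FKB16-2, of the FKBP family of peptidyl-prolyl isomerases, had 33.9 CPM in the high and 9.46 CPM in the low group of experiment 1, and 35.3 and 3.25 CPM in experiment 2. VDAC1, a porin of the outer mitochondrial membrane, had 75.3 and 20.6 CPM in experiment 1, and 80.2 and 16.0 CPM in experiment 2. CPLD30, CPLD48 and YGG2 had log2 fold changes of 1.90, 2.09 and 2.68. All 3 were higher in the high group of both libraries.

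Of 57 lipid genes tested, 5 were called higher and 0 lower, against 1.62% and 3.31% over all genes. BCC1 and BCC2 encode the biotin carrier of chloroplast acetyl-CoA carboxylase, the first committed enzyme of fatty acid synthesis. BCC2 had 75.4 CPM in the high and 15.9 CPM in the low group of experiment 1, and 61.8 and 7.26 CPM in experiment 2 (log2 fold change 2.66 ± 0.65 SE, edgeR adjusted p = 0.00307). BCC1 had 132 and 30.6 CPM in experiment 1, and 89.4 and 14.7 CPM in experiment 2. KAR1, the ketoacyl-ACP reductase of the same pathway, had 130.3 and 37.9 CPM in experiment 1, and 120.3 and 15.7 CPM in experiment 2. The other 2 were SQD2, of sulfolipid synthesis, and DGTT4, a diacylglycerol acyltransferase. The list as a whole did not move one way, with a median log2 ratio of 0.58 in experiment 1 and 0.22 in experiment 2, against 0.10 and 0.06 over all genes tested, and its median in experiment 2 was -0.31 with no factors. With no factors 3 lipid genes were called higher and 2 lower, and DESeq2 called 9 higher and 1 lower.

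Chloroplast ribosomal protein genes were mostly higher. Of 41, 40 were higher in the high group of both libraries (38 with no factors), 8 were called higher and 0 lower, and their median log2 ratios were 1.01 and 1.77. Over all 12917 genes 4854 were higher in both libraries, and 1.62% were called higher. PRPS17, of the small subunit, had 89.2 CPM in the high and 32.7 CPM in the low group of experiment 1, and 93.1 and 16.5 CPM in experiment 2. The others called were PRPL7, PRPL11, PRPL27, PRPL34, PSRP3, PSRP6 and Cre48.g761197. Without the decile of cells with the highest cell division share, 3 of the 41 were called. Cytosolic ribosomal protein genes, which took 60.8% and 62.6% of UMIs outside the list in the high and low group of experiment 1 and 70.3% and 64.4% in experiment 2, had 0 of 76 called in either direction and 0 with an unadjusted p under 0.05 in edgeR (0 in DESeq2). On the TMM scale 75 of the 76 were higher in both libraries, with median log2 ratios of 0.17 and 0.66. With no factors 16 were higher and 4 lower in both, so counts of signs depend on the scaling. Of 35 mitochondrial ribosomal protein genes 0 were called by edgeR, with 2 at an unadjusted p under 0.05, and DESeq2 called 0.

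**Figure D4:**
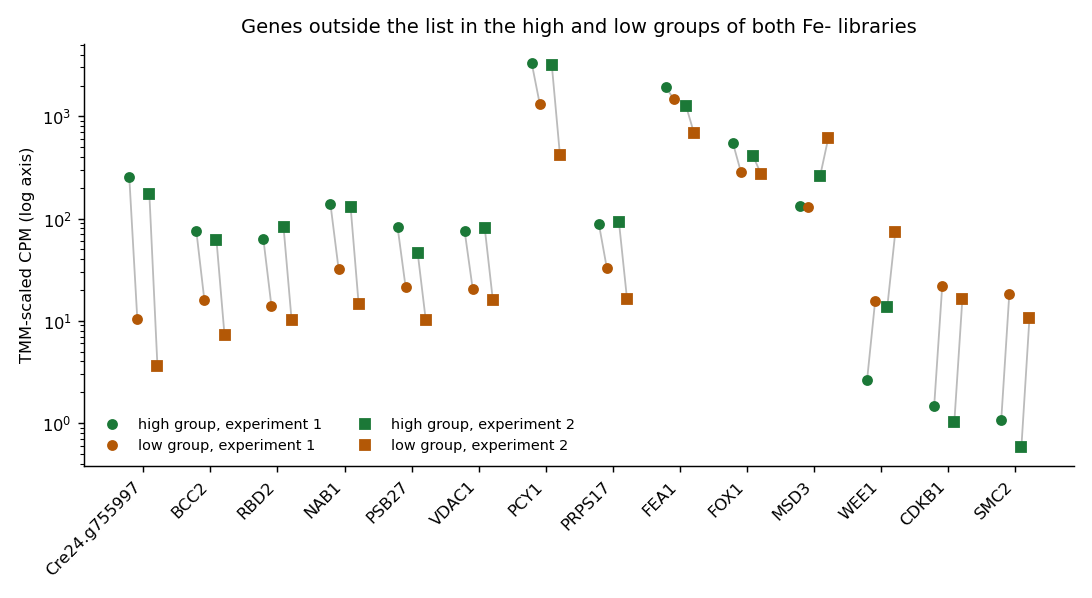
TMM-scaled CPM (log axis) of 14 genes outside the photosynthesis list in the high and the low group of the 2 Fe- libraries, lines joining the groups of 1 library. Cre24.g755997 to PRPS17 lie higher in the high group and WEE1, CDKB1 and SMC2 lower in both libraries, with MSD3 at 132 and 129 CPM in experiment 1 and 261 and 607 CPM in experiment 2.

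The genes called lower in the high group included 16 of 90 cell division genes tested, and 0 were called higher, against 3.31% lower and 1.62% higher over all genes. The median log2 ratios of the 90 were -0.97 and -0.60, and -0.34 and -0.52 without the decile of cells with the highest division share. The list took 0.0680% of UMIs outside the photosynthesis list in the high group and 0.157% in the low group of experiment 1, and 0.0311% and 0.104% in experiment 2. The members called spanned DNA replication (CDC6, MCM3, ORC4, POLA2, DNA2, RFA3/RPA70B), chromosome structure (SMC2, CAP D2, SMC5B, SMC6A, TOP2) and mitotic control (CDKB1, CYCA1, WEE1, CDC20, ESP1).

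SMC2 and CAP D2 are subunits of condensin, which compacts chromosomes for mitosis. SMC2 had 11 UMIs in the high and 237 UMIs in the low group of experiment 1, and 4 and 111 UMIs in experiment 2, and its log2 ratio was -4.02 in each library (fold change -4.11 ± 0.69 SE on the log2 scale, edgeR adjusted p = 5.26e-06). CAP D2 had 6 and 121 UMIs in experiment 1, and 15 and 132 UMIs in experiment 2. CDKB1, the plant-type mitotic cyclin-dependent kinase, had 15 and 284 UMIs in experiment 1, and 7 and 171 UMIs in experiment 2 (edgeR adjusted p = 8.75e-06). Of the UMIs of these 3 genes in the high and low groups, most were thus in the low group in both experiments.

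The other division genes were also rare. CYCA1, an A-type cyclin, had 2.86 CPM in the high and 24.4 CPM in the low group of experiment 1, and 2.62 and 16.5 CPM in experiment 2. WEE1, a kinase that holds back mitotic entry, had 2.66 and 15.7 CPM in experiment 1, and 13.5 and 73.4 CPM in experiment 2. TOP2 (DNA topoisomerase II) had 2.56 and 29.9 CPM in experiment 1, and 4.36 and 15.9 CPM in experiment 2. CDC20, an activator of the anaphase-promoting complex, had 1.18 and 11.9 CPM in experiment 1, and 0.872 and 3.06 CPM in experiment 2. The replication genes POLA2, CDC6 and MCM3 and the repair gene SMC5B had log2 fold changes of -1.93, -1.99, -1.91 and -1.83. HSP70H, of the HSP70 chaperone family and outside the division list, had a log2 fold change of -2.13. With the decile of cells of highest division share left out, 9 division genes were still called lower, and 298 of all 427 genes called lower were called again.

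The lowest ratios of any gene with at least 200 UMIs also included genes without symbols. Cre09.g397660 (9:4864244-4867680) was abundant, with 8.96 CPM in the high and 276 CPM in the low group of experiment 1, and 44.5 and 584 CPM in experiment 2 (edgeR adjusted p = 1.37e-06). Cre17.g728750 (17:3974807-3979694) had 2 and 159 UMIs in experiment 1, and 21 and 478 UMIs in experiment 2. Cre17.g711850 (17:2061616-2062297) had 1 and 31 UMIs in experiment 1, and 7 and 161 UMIs in experiment 2. All 3 were lower in the high group of both libraries.

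Few genes of the iron response passed the test between the groups. Of 98 genes of the study's iron deficiency list, 0 were called higher and 1, Cre02.g080600, was called lower by edgeR, against 4.92% called in either direction over all genes, with 17 at an unadjusted p under 0.05, while DESeq2 called 3 higher and 2 lower. Their median log2 ratios were 0.46 in experiment 1 and -0.01 in experiment 2, with 48 higher and 11 lower in both libraries (35 and 20 with no factors). The list took 2.10% of UMIs outside the photosynthesis list in the high and 1.96% in the low group of experiment 1, and 0.599% and 0.854% in experiment 2. FEA1, a secreted iron-assimilation protein, had 1917 CPM in the high and 1466 CPM in the low group of experiment 1, and 1264 and 683 CPM in experiment 2 (log2 fold change 0.64 ± 0.56 SE, edgeR adjusted p = 0.563). FEA2, its relative, had 574 and 249 CPM in experiment 1, and 707 and 369.9 CPM in experiment 2 (edgeR adjusted p = 0.317). FRE1, the ferric reductase, had 632 and 375 CPM in experiment 1, and 601 and 235 CPM in experiment 2 (edgeR adjusted p = 0.331). Cells at both ends of the photosynthesis range thus carried these 3 mRNAs at 235 to 1917 CPM. All 3 were higher in the high group of both libraries with counting intervals above 1, at 1.31-fold and 1.85-fold for FEA1, 2.31-fold and 1.91-fold for FEA2, and 1.69-fold and 2.55-fold for FRE1, and a p that missed the threshold over 2 libraries does not show that the groups were alike.

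The remaining iron genes fixed for description did not pass either. FOX1, the multicopper ferroxidase, had 545 CPM in the high and 283 CPM in the low group of experiment 1, and 408 and 272 CPM in experiment 2. FTR1, the iron permease, had 144 and 80.1 CPM in experiment 1, and 69.7 and 66.1 CPM in experiment 2. MSD3, a manganese superoxide dismutase, had 132 and 129 CPM in experiment 1, and 261 and 607 CPM in experiment 2. CDJ3, a chloroplast DnaJ-like protein with an iron-sulfur cluster, had 160.0 and 96.3 CPM in experiment 1, and 119 and 153 CPM in experiment 2. CGLD27, a conserved chloroplast protein, had 228 and 137 CPM in experiment 1, and 140.4 and 40.2 CPM in experiment 2. For these 5 genes, FOX1, FTR1, MSD3, CDJ3 and CGLD27, the values were edgeR adjusted p values of 0.506, 0.72, 0.633, 0.896 and 0.25.

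Over deciles of cells by photosynthesis share, some lists ran the same way in both libraries and others did not. Chloroplast ribosomal protein UMIs increased from the lowest to the highest decile, from 0.367% to 0.767% of UMIs outside the list in experiment 1 and from 0.158% to 0.422% in experiment 2. Cell division UMIs went from 0.154% to 0.0619% in experiment 1 and from 0.122% to 0.0287% in experiment 2. Nitrogen deficiency UMIs went from 0.583% to 0.421% and from 0.979% to 0.417%, so that these 3 lists kept 1 direction in both libraries. Lipid UMIs ran opposite ways, from 0.440% to 0.679% in experiment 1 and from 0.673% to 0.347% in experiment 2. Iron deficiency UMIs went from 1.96% to 2.14% in experiment 1 and from 0.908% to 0.633% in experiment 2. Genes detected per cell also moved with the score, with a median of 783 in the high and 758 in the low group of experiment 1 and 706.5 and 935 in experiment 2, and their part in these results was not tested.

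**Figure D5:**
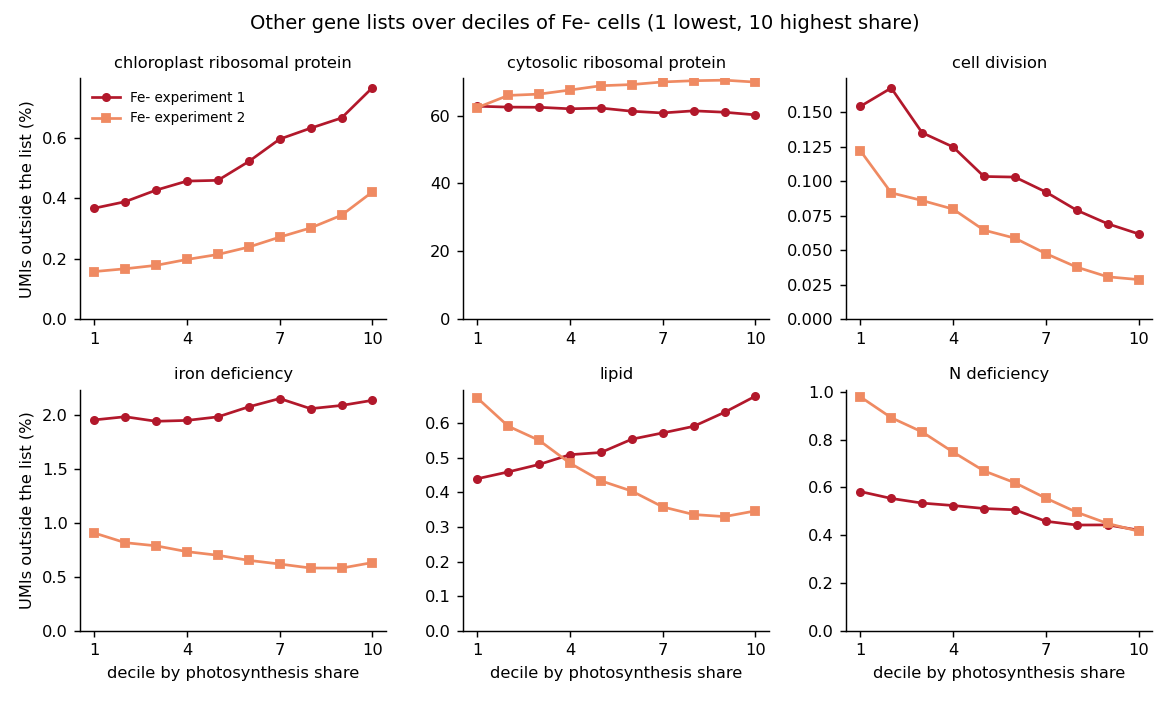
Percent of UMIs outside the photosynthesis list (y axis) in 6 other gene lists over deciles of Fe- cells ordered by photosynthesis share (x axis, 1 lowest, 10 highest), for both Fe- libraries. Chloroplast ribosomal protein UMIs climb and cell division UMIs decline in both libraries, while lipid UMIs cross, at 0.440% and 0.679% in the first and last decile of experiment 1 and 0.673% and 0.347% in experiment 2.

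Most genes called in Fe- cells had the same sign in Fe+ cells split by their own scores. Of the 209 genes called higher, 207 could be tested in both conditions, and 189 were higher in the high group of both Fe+ libraries, with median Fe+ log2 ratios of 0.57 and 1.04. Of the 427 called lower, 332 could be tested, and 260 were lower in both Fe+ libraries, with medians of -0.83 and -1.91. Over all 12109 such genes, 4578 were higher and 3626 lower in both, with medians of 0.08 and 0.03. These are counts of signs, and the genes had been chosen for their size in Fe- cells, so the sizes in the 2 conditions were not set against each other. In Fe+ cells 329 of 12182 genes (2.7%) had an adjusted p under 0.05 in edgeR. A difference of the split between Fe- and Fe+ cells passed the same threshold for 11 of 12182 genes (0.0903%), while 707 had an unadjusted p under 0.05.

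The cell division list ran the other way in Fe+ cells of experiment 1 and the same way in experiment 2. The division list took 0.0680% in the high and 0.157% in the low group of Fe- cells of experiment 1, and 0.0980% and 0.0730% in Fe+ cells. In experiment 2 it took 0.0311% and 0.104% in Fe- cells and 0.0253% and 0.0333% in Fe+ cells. Of the 82 division genes tested for that difference, 1, CDKB1, passed (log2 difference -3.14 ± 0.67 SE, edgeR adjusted p = 0.0416).

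The split was repeated in Fe- cells of the walled strain CC-4532, which the choice of cells had not used. There the list took 2.09% of UMIs in the high and 0.301% in the low group, at 318 and 423 genes per cell. The SD of the share over these cells was 0.881 percentage points, against 0.193 for counting alone. Ratios were centred on the median gene, whose log2 ratio was -0.63 before centring. On that scale 121 of 123 genes called higher in CC-5390 that had at least 20 UMIs were also higher in the high group of CC-4532, with a median log2 ratio of 1.42. Of 256 genes called lower, 227 were lower, with a median of -0.84. Of all 8659 genes with that many UMIs, 49.9% were higher. This was 1 library, so no test was made.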

How the data were processed

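Single cells were profiled with a Chromium 3′ kit, v3 per the labels, while the study's text also speaks of a v2 protocol. Per the labels and the study's methods, the authors mapped reads to the Chlamydomonas v5.5 genome with Cell Ranger and deposited raw UMI counts per gene and cell, 1 table per library, not normalised. The deposited Fe- libraries of CC-5390 held 11016 and 9291 cells, and the study reports fewer for both. In experiment 2 it reports fewer than the 8110 cells scored here, and the cells it left out were not identified. The SD for counting alone was computed from the depth and share of each cell. No doublet caller was run and strand use is not given in the sources used here.

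Cells under 1000 UMIs were left out. Groups were set within 20 depth bins, and UMIs were summed per group and library. Genes passing filterByExpr were tested with edgeR 4.0.16 (R 4.3.3), quasi-likelihood, library as block, TMM on UMIs outside the photosynthesis list. The block is the library both groups come from, so the pairing follows from the design. P-values rest on how far the high over low ratio of a gene differed between the 2 libraries, with the spread moderated across genes by edgeR. The difference between Fe- and Fe+ was an interaction over 8 sums. Ratios of list genes carry exact conditional 95% intervals, for counting error only. Log2 ratios per library add 0.5 to each sum.

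Genes named are those called with at least 200 UMIs, ranked by the smaller absolute log2 ratio: 5 highest and 5 lowest of any gene, 12 and 12 with a symbol, plus 22 fixed genes, of which 10 had a locus in the sources and the rest were not analysed here. The members and lists were chosen with earlier results of these data known, and the lists were those of the study. Positions are from RefSeq on v5.5. Alternatives were DESeq2 1.42.0, other scalings, no low-count filter, no block, thinning, other cell cuts and scores without or with only antenna genes. Scripts were tested on simulated data with less spread between sums than in these data, where the biological coefficient of variation was 0.325. That test therefore does not show how calls behave at the noise level found here.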

Additional observations from a re-analysis of the deposited data

Results flagged for a closer look

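For 11 genes the difference between the high and the low group itself differed between Fe- and Fe+ cells (edgeR interaction, adjusted p under 0.05, 0.0903% of 12182 genes tested). The count was 3 with RLE factors, 2 with cells thinned to 1000 UMIs and 1 with no factors. Each value is the log2 ratio in Fe- cells minus that in Fe+ cells. The widths of the score also differ between the conditions, and their part was not tested.

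Cre24.g755997 differed by 4.004 ± 0.54 (SE, adjusted p = 3.75e-05). It had 341 and 16.0 CPM, without TMM factors, in the high and low group of Fe- cells of experiment 1 and 1118 and 757 CPM in Fe+ cells, and in experiment 2 99.99 and 3.04 CPM in Fe- cells and 1078 and 443 CPM in Fe+ cells. The gene was thus high in Fe+ cells of either group and low in Fe- cells of the low group. Cre13.g577352 differed by 4.27 ± 0.80, with 127 and 5 UMIs in Fe- experiment 1 and 35 and 0 in experiment 2, where it was at least 17.8-fold higher against a floor of 3 UMIs in that library.

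PHC1 and PHC21, which encode pherophorin-type extracellular matrix proteins, differed by 2.47 ± 0.54 and 2.54 ± 0.55. PHC1 had 983 and 896 CPM in Fe- cells and 98.8 and 937 CPM in Fe+ cells of experiment 1, and 74.9 and 140.3 CPM in Fe- cells and 97.9 and 396 CPM in Fe+ cells of experiment 2. PHC21 had 396 and 717 CPM in Fe- cells and 33.5 and 524 CPM in Fe+ cells of experiment 1. Cre09.g396100, of the iron deficiency list, differed by 2.32 ± 0.50, with 1463 and 1375 CPM in Fe- cells and 441 and 3558 CPM in Fe+ cells of experiment 1. These 3 genes were depleted from the high group of Fe+ cells by more than in Fe- cells.

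Cre11.g481750 differed by 3.17 and Cre07.g346698 by 3.01, both with TMM-scaled log2 ratios below 0 in both Fe+ libraries and above 0 in both Fe- libraries, except that with no factors Cre11.g481750 was at -0.29 in Fe- experiment 2 (27 and 35 UMIs). CDKB1 differed by -3.14, Cre06.g309000 by -3.68, Cre16.g661750 by -3.69 and Cre17.g714650 by -4.18. Cre06.g309000 and Cre16.g661750 had log2 ratios below 0 in both Fe- libraries and above 0 in both Fe+ libraries. In Fe- experiment 1 these rested on 6 and 20 UMIs for Cre06.g309000 and on 6 and 12 UMIs for Cre16.g661750. The ratio of Cre16.g661750 there was 0.66 with a counting interval of 0.195 to 1.83, so its sign in that library is uncertain.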

How the results depend on the processing

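Directions of the 35 named genes that were called held under every alternative tried, and 403 of 485 gene and setting pairs kept their side of the threshold. The count called higher, 209, was 109 with no factors, 111 with neither factors nor cytosolic ribosomal protein UMIs (chosen after seeing the data), 82 with thinning and 112 with the score set without antenna genes. The count called lower, 427, was 834 with no factors and 110 with thinning. Without the replicate block both counts were 0; the pairing is by library. With 1 library alone there is no test, and 2641 to 4633 genes were past the fold upwards and 2072 to 4335 downwards. The 11 genes that differed between Fe- and Fe+ were 3 with RLE factors, 24 with no low-count filter, 2 with thinning and 1 with no factors (chosen after seeing the data). The difference in share in experiment 1, 7.90 points, was 11.1 between outer deciles of cells. Fitted log2 values near 0 changed sign for 4 genes that were not called: CDJ3 at -0.18 with no factors, -0.083 without cytosolic ribosomal protein UMIs and -0.11 without antenna genes; Cre11.g481750 at -0.038 with antenna alone; PHC1 at 0.21 without the block, 0.10 with outer deciles, 0.045 at 2000 UMIs and 0.48 without antenna genes; and Cre09.g396100 at -0.035 with RLE, -0.31 with no factors, -0.22 without cytosolic ribosomal protein UMIs, -0.017 in DESeq2, -0.033 thinned, -0.11 without depth bins, -0.072 without dividing cells and -0.090 with antenna alone. The cause was not tested. Rare mRNAs of few UMIs per sum limit the division genes.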

Other observations

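Some genes of the nitrogen sufficiency list moved with the photosynthesis share, in both directions, although these cells had nitrogen. Of 128 genes of the study's nitrogen sufficiency list, 12 were called higher and 7 lower in the high group, against 1.62% and 3.31% of all genes, and their median log2 ratios were -0.48 and -0.79. The 12 included PCY1, NAB1, PSB27, RBD2, VDAC1 and FKB16-2. The study states that its sufficiency list includes several genes of photosynthetic components, and those on the photosynthesis list were left out here. Of 99 nitrogen deficiency genes, 1 was called higher, ASB2, and 2 lower, Cre06.g259000 and Cre16.g653850, against 1.62% and 3.31% of all genes. The deficiency list took 0.433% of UMIs outside the photosynthesis list in the high and 0.563% in the low group of experiment 1, and 0.445% and 0.923% in experiment 2.

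Chloroplast genome transcripts ran the same way as the nuclear list, although 3′ capture of mRNAs with few poly(A) tails samples them poorly. Of 75 tested, 70 were higher in the high group of both libraries and 0 lower in both (56 and 5 with no factors), against 4854 and 3802 of 12917 genes, and 1 was called higher, against 1.62% of all genes. They took 0.786% in the high and 0.604% in the low group of experiment 1, and 1.40% and 1.06% in experiment 2. Genes of cilia proteins and tubulins were picked by symbol from the study's gene lists, so they are not a full set of cilia genes. Of 49 tested, 37 were lower in both libraries and 2 higher in both, against 3802 and 4854 of all 12917 genes. By edgeR 0 were called, against 1.62% higher and 3.31% lower over all genes, with 12 at an unadjusted p under 0.05. DESeq2 called 0.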
